A study of Homo sapiens with 3 samples.

Results

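The transcripts described here are 10 genes of YAP-TEAD signaling, the output of the Hippo pathway, in Caki-1 cells depleted of RBCK1. They were chosen by name: the coactivators *YAP1* and *WWTR1* (whose protein is called TAZ), the DNA-binding factor *TEAD1*, the regulators *LATS2*, *AJUBA* and *AMOTL2*, and the targets *CTGF*, *CYR61*, *ANKRD1* and *AXL*. All 10 were found among the 44591 genes of the deposited table, each under 1 entry. Caki-1 is an established human renal carcinoma line that carries wild-type p53. It received either a non-targeting siRNA (si-Control) or an siRNA that targets RBCK1, the gene also called HOIL-1, of which there were 2 (si-RBCK1 #1 and si-RBCK1 #2), and RNA was taken after 48 h. All conditions received the same transfection reagent, and the knockdown was transient, in 1 cell line. Each condition was sequenced as 1 library, so differences have no replicate check and carry no p-value, and both comparisons share the single si-Control library. The study asked which transcripts differ when RBCK1, a component of the linear ubiquitin ligase, is depleted.

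YAP and TAZ are paralogous coactivators that do not bind DNA themselves and reach their target genes through TEAD factors. The kinases LATS1 and LATS2 phosphorylate them, which holds them in the cytoplasm and marks them for degradation, and this step is sensitive to cell density, cell shape and tension. Several targets of YAP and TEAD, among them *LATS2* and *AMOTL2*, encode inhibitors of YAP and so form a negative feedback. Because this control acts on proteins, the mRNA levels below do not measure the activity of YAP or TAZ.

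The sequences that bear on the results are the siRNAs themselves and the TEAD motifs near the transcript starts of the targets. The siRNAs are given as DNA sense strands of 19 bases, with the stretch that pairs with guide positions 2 to 8, the seed, in capitals.
si-RBCK1 #1: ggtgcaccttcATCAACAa
si-RBCK1 #2: ggattaccagcGATTTCTa
Matches to these seed sites were counted in the longest protein-coding transcript of each gene in GENCODE v29. The site of si-RBCK1 #1 was in 0 of the 10 genes, against 22.3% of all 19669 genes searched. The site of si-RBCK1 #2 was in 1 of the 10, *CTGF*, where it occurred 1 time, against 25.9% of all genes.

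TEAD factors bind the motif GGAATG, which was searched on both strands of the RefSeq windows from 250 bases before to 50 bases after each transcript start (GRCh38.p14). Windows were found for 8 of the 10 genes, 12 windows in all, since some genes have 2 starts, and *TEAD1* and *CYR61* had no entry. The motif was in 7 of these 12 windows, while 14.0% of all 35116 windows hold it. The genes were chosen for their part in YAP-TEAD signaling, so a larger share than in all windows is not an independent result. The 7 windows belong to 7 different genes, and neither window of *WWTR1* held the motif. *AJUBA*, *AMOTL2* and *AXL* have 2 windows each, and only the window of the more downstream start held it. Which start these cells used was not tested. Only *CTGF* held 3 motifs, with 0.128% of all windows holding at least 3, and only *ANKRD1* held 2, with 1.37% of all windows holding at least 2. The 250 bases before the starts of these genes are shown with the TEAD motifs in capitals, *CTGF* from chr6:131951373-131951622 and *ANKRD1* from chr10:90921088-90921337, both on the minus strand.
CTGF: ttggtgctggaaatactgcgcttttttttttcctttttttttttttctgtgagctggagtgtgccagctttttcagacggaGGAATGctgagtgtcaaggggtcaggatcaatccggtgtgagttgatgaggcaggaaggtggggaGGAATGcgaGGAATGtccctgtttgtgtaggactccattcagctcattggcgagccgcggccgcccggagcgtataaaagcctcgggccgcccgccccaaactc
ANKRD1: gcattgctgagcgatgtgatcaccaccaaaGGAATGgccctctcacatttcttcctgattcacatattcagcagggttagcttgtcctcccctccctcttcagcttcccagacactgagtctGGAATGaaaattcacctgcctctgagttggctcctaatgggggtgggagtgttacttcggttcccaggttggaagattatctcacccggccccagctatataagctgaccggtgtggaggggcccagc
The motifs of *CTGF* began 169, 104 and 95 bases before the start, and those of *ANKRD1* 220 and 128 bases before it. The *ANKRD1* window also held the AP-1 motif TGANTCA, 195 bases before the start and overlapping neither TEAD motif. AP-1 motifs were in no other window of the 8 genes and in 7.71% of all windows. Single TEAD motifs stood before starts of *YAP1* (chr11:102110275-102110300, plus strand), *AJUBA* (chr14:22976886-22976911, minus strand), *AMOTL2* (chr3:134374501-134374526, minus strand) and *AXL* (chr19:41226533-41226558, plus strand). They are shown with 10 bases on either side, so that they can be set beside the levels of these genes. In *AMOTL2* and *AXL* the motif lies on the other strand and reads CATTCC.
YAP1: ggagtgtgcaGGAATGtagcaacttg
AJUBA: gaagttggctGGAATGaagccaaagc
AMOTL2: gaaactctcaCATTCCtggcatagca
AXL: gactttgcacCATTCCactccctccg
The motif of *LATS2* began 9 bases after the start. Genes with a motif were found among those that were lower and those that were higher after depletion, as the levels below show. Only *WWTR1* of the 8 genes lacked a motif, so these windows cannot relate its presence to a direction. These matches are descriptions of sequence, and no binding was measured in these cells.

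**Figure D1:**
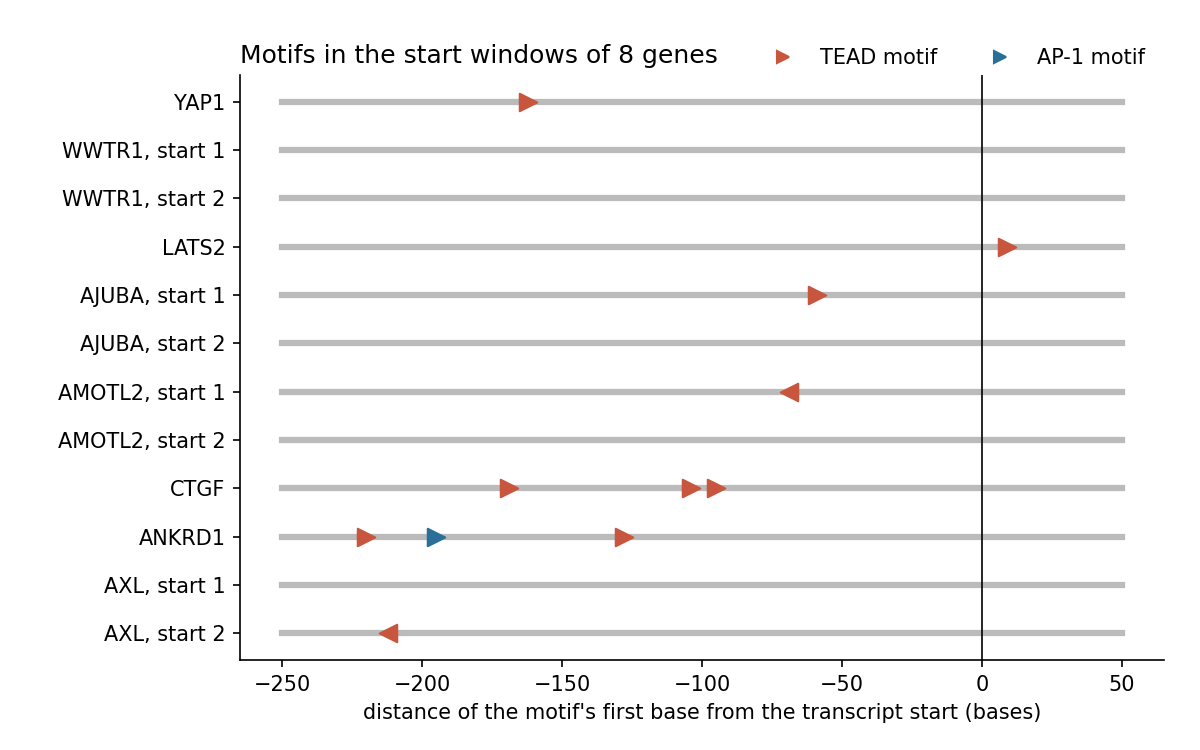
TEAD and AP-1 motifs in the 12 RefSeq start windows of 8 of the genes, with the distance of each motif from the transcript start in bases on the x axis and 1 window per line. Arrowheads to the right mark the strand of the gene and arrowheads to the left the other strand, and *CTGF* holds 3 TEAD motifs and *ANKRD1* 2.

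The deposited values are RPKM, the reads of a gene divided by its length and by the sequencing depth of its library, so levels can be compared between genes. The steps between low values gave library totals of 36926834 reads (si-Control), 40442939 reads (si-RBCK1 #1) and 36344428 reads (si-RBCK1 #2). With these totals, whole reads were recovered for all 10 genes, between 295 and 35627 reads per gene and library. Log2 ratios to si-Control were computed after adding 1 RPKM to each value, so the ratios of low genes are drawn towards 0. Counting intervals (95%, exact Clopper-Pearson, or exact Poisson for a level) rest on recovered reads without the pseudocount and cover counting error only, so a ratio with the pseudocount can lie at or just outside the edge of its interval. In bulk RNA, fewer cells of a type and less RNA per cell cannot be told apart. *RBCK1* was at 33.3 RPKM under si-Control, 9.97 RPKM under si-RBCK1 #1 and 12.3 RPKM under si-RBCK1 #2, that is, 29.9% and 36.8% of si-Control on reads. Of 8 renal epithelial markers, 7 reached a mean of 1 RPKM, among them *PAX8* (124 RPKM under si-Control, 82.5 and 107 RPKM after depletion), and *PAX2* was at or near 0. The renal epithelial markers summed to 973 RPKM under si-Control and to 1931 and 1938 RPKM after depletion, led by the filament genes *VIM*, *KRT8* and *KRT18*, and their part in the differences below was not tested. Of the markers of other cells, 1 of 7 for fibroblasts (*COL1A1*, 3.21 to 4.68 RPKM), 0 of 5 for endothelium and 1 of 5 for immune cells (*CD68*, which is not restricted to them) reached this mean. The summed RPKM of the fibroblast list was 5.74, 4.15 and 5.24 in the order si-Control, si-RBCK1 #1 and si-RBCK1 #2. Sums in the same order were 0.0863, 0.0729 and 0.0751 for the endothelial list and 41.8, 51.1 and 52.3 for the immune list.

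With si-Control, *CYR61* had by far the highest level of the 10 genes, 420 RPKM, and the others lay between 11.5 and 98.0 RPKM. The order below it was *AXL*, *AJUBA*, *AMOTL2*, *WWTR1*, *YAP1*, *CTGF*, *TEAD1*, *LATS2* and *ANKRD1*. All neighbours in this order differed beyond their counting intervals except *LATS2* (11.7 RPKM, 11.3 to 12.2) and *ANKRD1* (11.5 RPKM, 10.7 to 12.3). All 10 genes were well detected under si-Control, at percentiles 59.05 to 99.02 of the 12403 genes whose mean reached 1 RPKM. *ANKRD1* lay at percentile 41.9 under si-RBCK1 #1 and 29.8 under si-RBCK1 #2. After depletion *CYR61* and *AXL* kept the first and second place, and *AJUBA* went from the third place to the sixth (si-RBCK1 #1) and the seventh (si-RBCK1 #2). *WWTR1* and *AMOTL2* then came next below *AXL*, and under si-RBCK1 #2 their counting intervals overlapped (39.7 RPKM, 38.8 to 40.6, and 41.5 RPKM, 40.6 to 42.4). The intervals of *YAP1* (22.0 to 23.3 RPKM) and *AJUBA* (20.7 to 22.1 RPKM) also overlapped in that library.

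**Figure D2:**
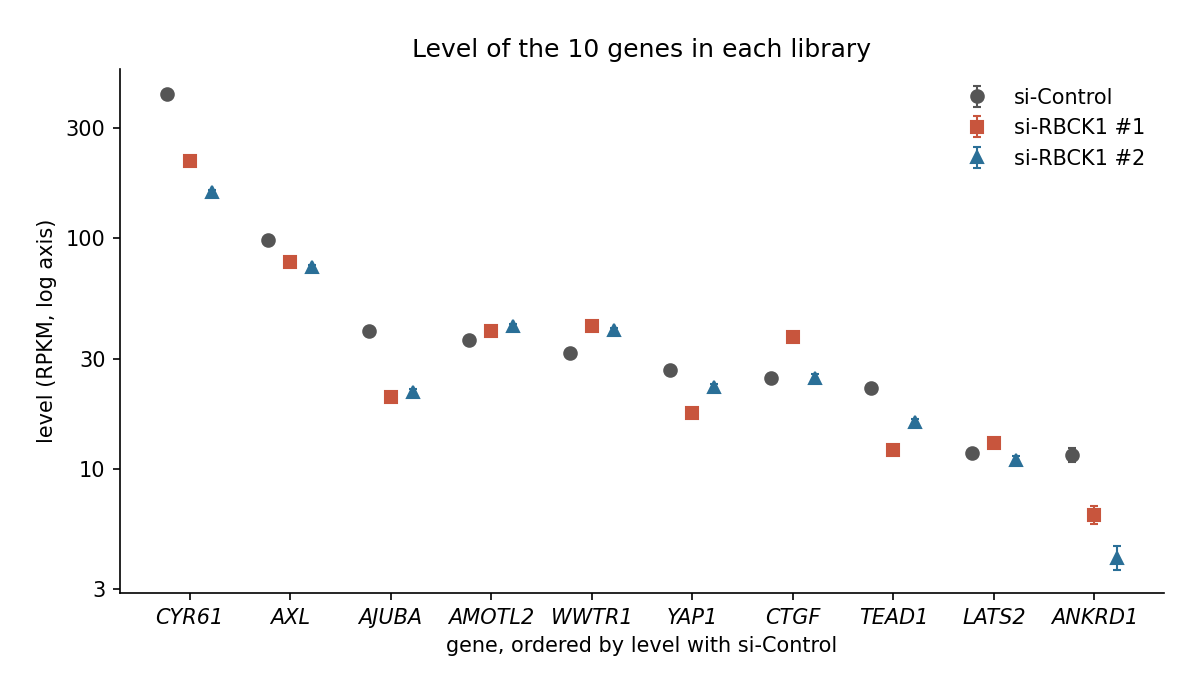
Level of each gene in RPKM on a log axis, ordered by its level under si-Control, with 1 point per library and exact Poisson 95% intervals on the reads as bars (often smaller than the point). *CYR61*, *AXL*, *AJUBA*, *YAP1*, *TEAD1* and *ANKRD1* are lower in both si-RBCK1 libraries than under si-Control, and *WWTR1* and *AMOTL2* are higher in both.

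The 10 genes did not move together. With both siRNAs, 6 of the 10 were lower than under si-Control (*CYR61*, *AJUBA*, *AXL*, *ANKRD1*, *TEAD1* and *YAP1*), while 38.2% of all 12403 genes were. *WWTR1*, *AMOTL2* and *CTGF*, 3 of the 10, were higher with both, against 43.3% of all genes, although *CTGF* under si-RBCK1 #2 lay at its si-Control level and its ratio turned negative with libraries scaled to equal medians or equal totals. *LATS2* had ratios of opposite sign, which makes 6 lower genes under si-RBCK1 #1 (48.4% of all genes) and 7 under si-RBCK1 #2 (46.4% of all genes). The median log2 ratio of the 10 genes was -0.45 under si-RBCK1 #1 and -0.31 under si-RBCK1 #2, beside 0.02 and 0.03 over all genes. At a limit of 2-fold, 0 of the 10 were lower under si-RBCK1 #1 (3.27% of all genes) and 2 were lower under si-RBCK1 #2, *CYR61* and *ANKRD1* (2.27% of all genes). None was at least 2-fold higher with either siRNA (2.91% and 2.5% of all genes), so that in either direction 0 of the 10 passed this limit under si-RBCK1 #1 (6.18% of all genes) and 2 under si-RBCK1 #2 (4.76%). With both siRNAs, 0 of the 10 were 2-fold lower (1.41% of all genes), and 0 passed the limit in the same direction (2.87%). At 1.5-fold, 5 of the 10 were lower under si-RBCK1 #1, against 11.6% of all genes, and 3 under si-RBCK1 #2, against 9.32%. *CYR61*, *AJUBA* and *ANKRD1* were 1.5-fold lower with both (6.24% of all genes), and none was 1.5-fold higher with both (7.47% of all genes). Among the log2 ratios of all 12403 genes, counted from the lowest, *CYR61* lay at percentile 3.76 under si-RBCK1 #1 and 0.677 under si-RBCK1 #2. *ANKRD1* lay at percentiles 6.64 and 0.895, *AJUBA* at 4.39 and 3.73, and *TEAD1* at 5.46 and 13.9. *WWTR1* lay at percentiles 77.9 and 73.5, and *CTGF* at 87.5 and 46.7, so that no gene of the 10 stood at the upper end of the distribution. The counting interval of the ratio left out 0 for 10 of 10 genes under si-RBCK1 #1 and for 9 of 10 under si-RBCK1 #2. At this depth it did so for 77.8% and 75.3% of the 12346 filtered genes with recovered reads in every library, so most of these genes pass this criterion.

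**Figure D3:**
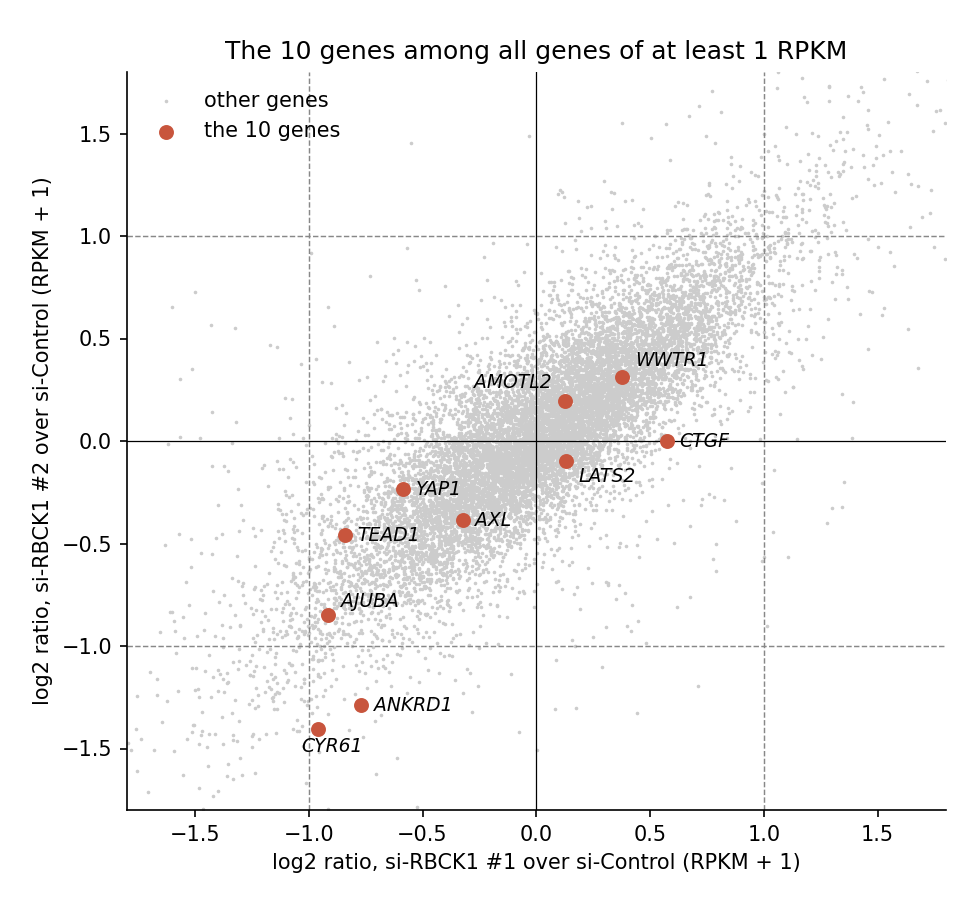
Log2 ratio (RPKM + 1) of each gene to si-Control under si-RBCK1 #1 (x axis) and si-RBCK1 #2 (y axis), with the 10 genes as large labelled points and the other genes of at least 1 RPKM as small grey points. The axes end at 1.8 in either direction, which leaves out 109 genes, dashed lines mark a 2-fold difference, and both ratios share the si-Control library. *CYR61* and *ANKRD1* lie below the 2-fold line of si-RBCK1 #2, and *CTGF* lies to the right on the line of no difference.

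Among the coactivators, *YAP1* and *WWTR1* went in opposite directions. *YAP1* (chromosome 11, 101981192 to 102104154 in hg19, plus strand) was at 26.8 RPKM (5635 reads) under si-Control, 17.5 RPKM (4034 reads) under si-RBCK1 #1 and 22.6 RPKM (4690 reads) under si-RBCK1 #2. It was highest under si-Control, and the 3 counting intervals did not overlap. Its log2 ratios were -0.59 and -0.23, with intervals on reads of -0.67 to -0.55 and -0.30 to -0.19. *WWTR1* (chromosome 3, 149235022 to 149421060, minus strand) measured 31.8, 41.6 and 39.7 RPKM in the same order (6296, 9025 and 7746 reads). It was lowest under si-Control and higher by similar amounts with both siRNAs, with log2 ratios of 0.38 (0.34 to 0.43) and 0.31 (0.27 to 0.37). *YAP1* transcripts were thus at 0.84 times the level of *WWTR1* under si-Control (interval 0.81 to 0.87), at 0.42 times under si-RBCK1 #1 (0.41 to 0.44) and at 0.57 times under si-RBCK1 #2 (0.55 to 0.59). The summed level of both was 58.5 RPKM under si-Control, 59.1 RPKM under si-RBCK1 #1 and 62.3 RPKM under si-RBCK1 #2, so the makeup of the pair differed more than its sum.

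*TEAD1*, which recruits YAP and TAZ to DNA, was lower in both si-RBCK1 libraries. On chromosome 11 from 12695969 to 12966284 (plus strand), it was at 22.3 RPKM (7763 reads) under si-Control, 12.0 RPKM (4573 reads) under si-RBCK1 #1 and 16.0 RPKM (5466 reads) under si-RBCK1 #2. Its log2 ratios were -0.84 (interval on reads -0.95 to -0.84) and -0.46 (-0.53 to -0.43). Like *YAP1*, it was lower under si-RBCK1 #1 than under si-RBCK1 #2, by a log2 ratio on reads of 0.41 (0.35 to 0.47) for *TEAD1* and 0.37 (0.31 to 0.43) for *YAP1*. The other TEAD factors differed less, with log2 ratios of -0.08 and -0.08 for *TEAD2*, -0.02 and 0.35 for *TEAD3*, and 0.10 and -0.14 for *TEAD4*. *TEAD1* made up 42.8% of the summed TEAD level under si-Control, 28.5% under si-RBCK1 #1 and 35.0% under si-RBCK1 #2. The sum over the TEAD genes was 52.1, 42.2 and 45.7 RPKM. Of the 7 TEAD factors and cofactors beside *TEAD1*, 4 passed the filter. *VGLL4*, a cofactor that competes with YAP for TEAD, had log2 ratios of 0.20 and 0.24, while *VGLL1*, *VGLL2* and *VGLL3* were below 1 RPKM in every library.

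The members that restrain or modulate the pathway did not share a direction. *AJUBA*, a LIM domain protein that binds LATS kinases and limits their activity, was lower by nearly the same factor with both siRNAs. On chromosome 14 from 23440383 to 23451851 (minus strand), it was at 39.3 RPKM (7551 reads) under si-Control, 20.4 RPKM (4290 reads) under si-RBCK1 #1 and 21.4 RPKM (4042 reads) under si-RBCK1 #2. These are 51.9% and 54.4% of si-Control on reads, and the log2 ratios were -0.91 and -0.85. *AMOTL2*, an angiomotin that binds YAP and holds it at cell junctions, was slightly higher with both. On chromosome 3 from 134074187 to 134094259 (minus strand), it measured 36.1, 39.5 and 41.5 RPKM (6978, 8371 and 7903 reads), log2 ratios of 0.13 (0.09 to 0.18) and 0.20 (0.16 to 0.25). *LATS2*, the kinase that inactivates YAP and TAZ, lies on chromosome 13 from 21547175 to 21635722 (minus strand). It was at 11.7 RPKM (2403 reads) under si-Control, 13.0 RPKM (2906 reads) under si-RBCK1 #1 and 10.9 RPKM (2195 reads) under si-RBCK1 #2, on either side of its si-Control level.

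The secreted CCN proteins *CTGF* and *CYR61*, the targets most often used as readouts of YAP and TEAD, differed from each other in both comparisons. *CYR61* (chromosome 1, 86046444 to 86049650, plus strand) was at 420 RPKM (35627 reads) under si-Control, 216 RPKM (20039 reads) under si-RBCK1 #1 and 158 RPKM (13192 reads) under si-RBCK1 #2. Both depleted libraries were far below si-Control, at 51.4% (50.5% to 52.3%) and 37.6% (36.9% to 38.4%) of its reads per total, log2 ratios of -0.96 and -1.40. *CTGF* (chromosome 6, 132269316 to 132272518, minus strand) measured 24.7, 37.2 and 24.7 RPKM (2135, 3531 and 2105 reads). It was higher only under si-RBCK1 #1, at 151% of si-Control (143% to 159%), a log2 ratio of 0.58. With si-RBCK1 #2 it was at 100.2% (94.3% to 106%), the only ratio of the 20 whose counting interval held 0. Between the si-RBCK1 libraries, *CTGF* was lower under si-RBCK1 #2 by a log2 ratio on reads of -0.59 (-0.67 to -0.51). That library received the siRNA whose seed site occurs in the *CTGF* transcript, as it does in 25.9% of all genes searched. Where in the transcript the site lies was not recorded, and the part of this site in the difference was not tested. *CYR61* transcripts were at 17.0 times the level of *CTGF* under si-Control (interval 16.3 to 17.8), at 5.80 times under si-RBCK1 #1 (5.59 to 6.01) and at 6.40 times under si-RBCK1 #2 (6.11 to 6.71). *CYR61* alone made up 58.2% of the summed RPKM of the 10 genes under si-Control (723 RPKM in all), 44.8% of 482 RPKM under si-RBCK1 #1 and 38.2% of 414 RPKM under si-RBCK1 #2.

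**Figure D4:**
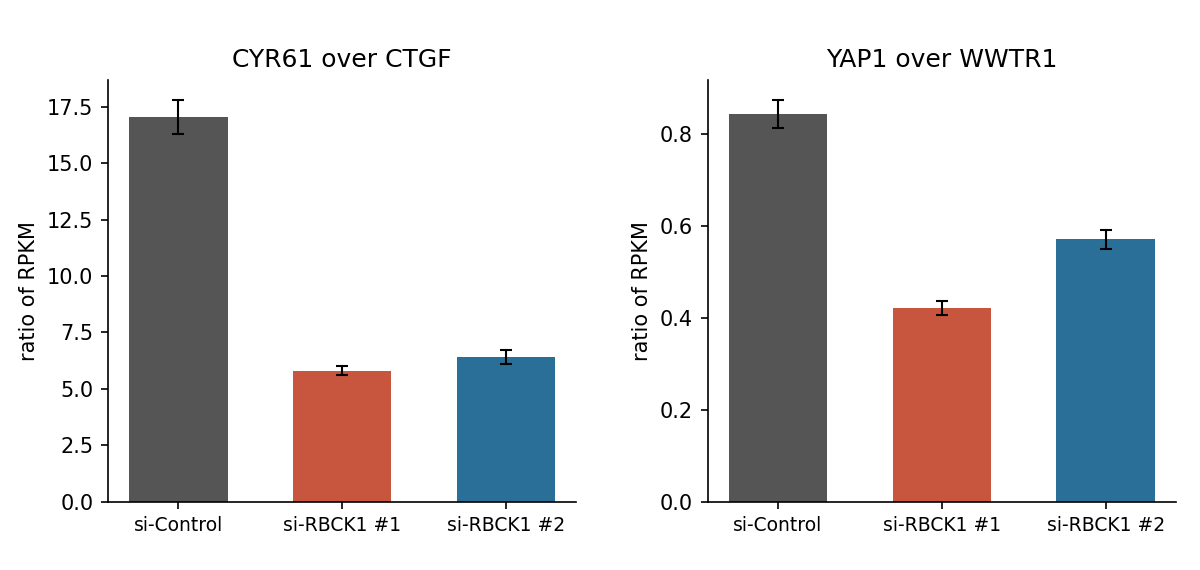
Ratio of RPKM within each library for *CYR61* over *CTGF* (left) and *YAP1* over *WWTR1* (right), with exact Clopper-Pearson 95% counting intervals as error bars and 1 bar per library. Both ratios are highest under si-Control, 17.0 and 0.84, and lower in both si-RBCK1 libraries.

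*ANKRD1*, a nuclear ankyrin repeat protein first known from stressed heart muscle, was lower with both siRNAs. On chromosome 10 from 92671857 to 92681032 (minus strand), it was at 11.5 RPKM (836 reads) under si-Control, 6.31 RPKM (504 reads) under si-RBCK1 #1 and 4.11 RPKM (295 reads) under si-RBCK1 #2. These are 55.0% (49.2% to 61.6%) and 35.9% (31.3% to 41.0%) of si-Control on reads, and the log2 ratios were -0.77 and -1.29. It had the fewest reads of the 10 genes and so the widest intervals, yet the 3 levels did not overlap. *ANKRD1* and *CYR61* were both lower under si-RBCK1 #2 than under si-RBCK1 #1, by log2 ratios on reads of -0.62 (-0.83 to -0.41) and -0.45 (-0.48 to -0.42). For *YAP1* and *TEAD1* it was the other way round. The windows of *ANKRD1* and *CTGF* shown above hold 2 and 3 TEAD motifs, and the levels of these genes went in different directions under si-RBCK1 #1. *AXL*, a receptor tyrosine kinase for GAS6 (chromosome 19, 41725104 to 41767672, plus strand), measured 98.0, 78.2 and 74.9 RPKM (17737, 15497 and 13344 reads). It was lower by a similar amount with both, with log2 ratios of -0.32 (-0.36 to -0.29) and -0.38 (-0.42 to -0.36).

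Of the 10 genes, 8 overlap other entries of the table, 11 in all, 3 of them on the same strand. The highest level among these 11 was 2.16 RPKM, for an antisense gene at *AXL*, and whether the counting used strand is not given in the sources used here.

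A wider list of 16 further YAP/TAZ targets, written from general knowledge with earlier results of these data known, also held lower and higher genes. The Hippo and SRF/MRTF lists below were written the same way, so counts in these lists are not independent results. In this list 13 genes passed the filter, and 8 were lower under si-RBCK1 #1 and 6 under si-RBCK1 #2 (48.4% and 46.4% of all genes). With both siRNAs 6 were lower and 5 higher, beside 38.2% and 43.3% of all genes. The medians were -0.18 and 0.01, while the means were -0.34 and -0.28. The second median was at -0.04 with libraries scaled to equal medians, -0.03 with equal totals and -0.02 without the filter, and the first was at -0.03 with the filter at 5 RPKM. The lower genes held the larger differences. *IGFBP3*, an IGF-binding protein, was at 66.4 RPKM under si-Control, 14.9 RPKM under si-RBCK1 #1 and 29.5 RPKM under si-RBCK1 #2, log2 ratios of -2.08 and -1.14. *GADD45A*, a growth arrest gene that p53 also activates, was at 369, 156 and 119 RPKM, log2 ratios of -1.24 and -1.62. These were the 2 genes of the list that were at least 2-fold lower, the same genes with either siRNA, beside the background shares of 3.27% and 2.27%. *ASAP1* (-0.94 and -0.79), *CRIM1* (-0.89 and -0.63) and *MYOF* (-0.66 and -0.48) were lower with both as well. *NT5E*, the ecto-enzyme CD73, was higher with both (20.2 RPKM, then 36.4 and 27.5 RPKM, log2 ratios of 0.82 and 0.43), and so were *CCDC80* (0.20 and 0.40) and *NUAK2* (0.43 and 0.15). *F3*, *FOXF2* and *RBMS3* did not pass. *RBMS3* was at 1.87 RPKM under si-Control and at 0.358 and 0.332 RPKM after depletion.

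Upstream of YAP, all 21 listed Hippo kinases and scaffolds passed the filter, with medians of -0.02 and -0.03, near those of all genes. With both siRNAs, 10 were lower and 9 higher, beside 38.2% and 43.3% of all genes. *FRMD6*, a FERM domain activator of the pathway, was at 39.4 RPKM under si-Control, 19.4 RPKM under si-RBCK1 #1 and 15.1 RPKM under si-RBCK1 #2, log2 ratios of -0.99 and -1.33. The core kinases *STK4* (-0.70 and -0.47) and *STK3* (-0.50 and -0.50) were lower, and *LATS1* less so (-0.24 and -0.19). *LATS2*, described above, had ratios of opposite sign (0.13 and -0.10). In the same list as *LATS1*, *MOB1B* was lower (-0.45 and -0.35), while *SAV1* (-0.06 and 0.07) and *MOB1A* (-0.02 and -0.18) differed less. The upstream TAO kinases were split, with *TAOK3* lower (-1.10 and -0.80), *TAOK2* higher (0.76 and 0.94) and *TAOK1* little different (0.02 and -0.08). *NF2*, the tumor suppressor merlin, was higher (0.25 and 0.49), and among the angiomotins *AMOTL1* (0.65 and 0.80) was higher by more than *AMOTL2*.

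*CTGF*, *CYR61* and *ANKRD1* are also activated by SRF with its coactivator MRTF, so 14 SRF/MRTF targets were examined beside them. Of the 12 that passed, 10 were higher under si-RBCK1 #1 and 9 under si-RBCK1 #2, while 51.5% and 53.5% of all genes were, and the medians were 0.22 and 0.53. *TAGLN* (2.89 RPKM under si-Control, 6.23 and 6.96 RPKM after depletion, log2 ratios of 0.89 and 1.03), *VCL* (0.67 and 0.74) and *CNN2* (0.62 and 0.61) were highest in ratio under si-RBCK1 #1. *FHL1* (-0.64 and -0.46) and *TPM1* (-0.42 and -0.36) were lower with both.

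**Figure D5:**
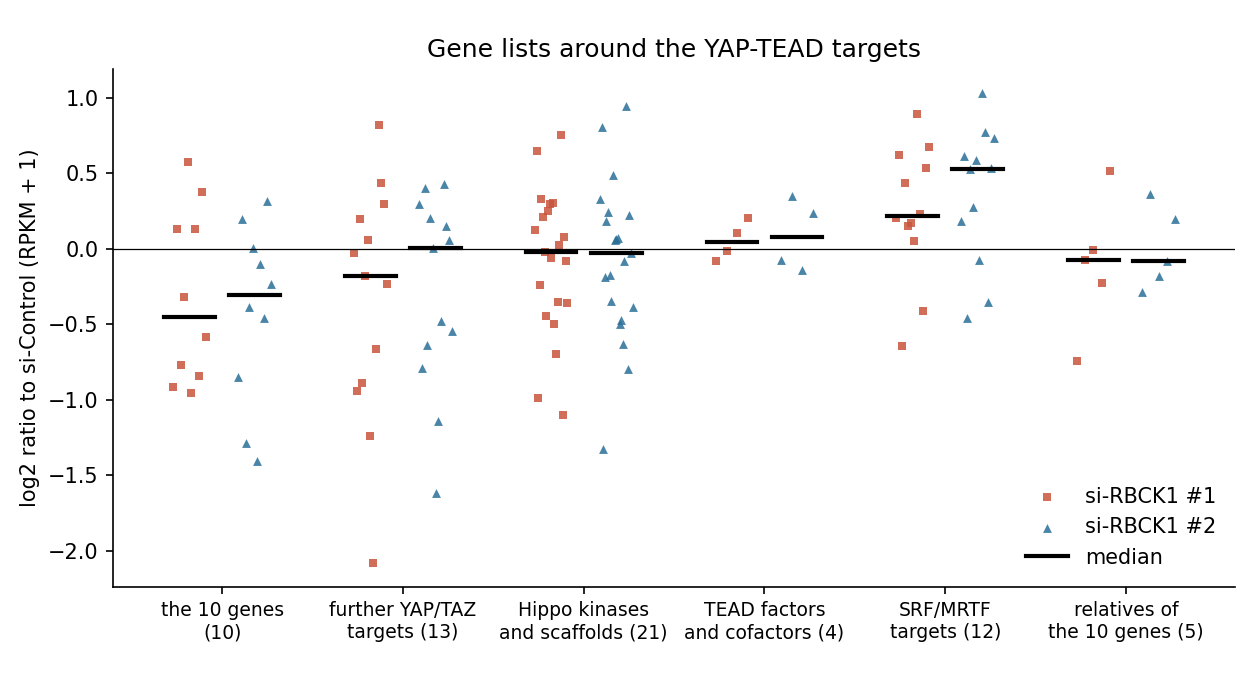
Log2 ratio (RPKM + 1) to si-Control of each gene that passed the filter, by list, under si-RBCK1 #1 as squares, si-RBCK1 #2 as triangles, the median of each as a black line and the number of genes in brackets. The medians of the 10 genes are -0.45 and -0.31, those of the Hippo kinases and scaffolds are near 0, and those of the SRF/MRTF targets are 0.22 and 0.53.

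The genes with the most similar pattern were sought for *CTGF*, *CYR61*, *ANKRD1* and *AXL* by the distance between pairs of log2 ratios, over protein-coding genes whose mean reached 10 RPKM. With 3 libraries, 2 values describe a pattern, so many genes lie close to one near the centre. Nearest to *CYR61* were *SCG5* (distance 0.02), *FRMD6* (0.08) and *SOD2* (0.09), among 5548 genes compared. Nearest to *ANKRD1* were *KLF10* (0.06), *KPNA4* (0.10) and *RPL22L1* (0.10), among 5549 genes compared. For *CTGF* they were *CWF19L1*, *TNFAIP8* and *PHF5A* (distances up to 0.05), and for *AXL* they were *CDKN2AIPNL*, *RCOR3* and *HDDC2* (up to 0.01).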

How the data were processed

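RNA was depleted of ribosomal RNA and sequenced from directional paired-end libraries. The submitters' processing notes name TopHat2, HTSeq, Trimmomatic, FastQC and the build hg19. The authors deposited 1 table with an RPKM value per gene and library, 1 entry of which is not a number. Columns of the authors' own comparison in the deposited table (log2 fold change, p-value and q-value) were not used. Library totals were read from short genes of up to 200 nt, where the RPKM of 1 read recurs. For each gene, the smallest length up to 50000 nt that gives whole reads in all 3 libraries (relative tolerance 5e-08) was searched, and 12390 of 12403 genes gave whole reads. Genes whose mean reached 1 RPKM were kept, with a pseudocount of 1 RPKM. No test was possible with 1 library per condition, and intervals cover counting error only. The steps were tested on simulated data. The members and lists were chosen with earlier results of these data known. All 10 members were named, and so were *RBCK1*, some of the cell type markers and the nearest patterns of 4 targets. Of the other listed genes only some were named, and not always those with the largest ratios. Alternatives were other scalings, pseudocounts, filters, fold limits and means. Protein sequences were not used here. The scripts ran in Python 3.11.15 and used scipy 1.17.1, numpy 2.4.6, matplotlib 3.10.9 and pandas 2.3.3.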

Additional observations from a re-analysis of the deposited data

Results flagged for a closer look

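*LATS2* went in opposite directions with the siRNAs, with a log2 ratio of 0.13 under si-RBCK1 #1 (interval on reads 0.06 to 0.22) and -0.10 under si-RBCK1 #2 (-0.19 to -0.02). Each counting interval lay on its own side of 0, and with 1 library per condition the difference was not tested.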

How the results depend on the processing

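No paired analysis was possible because no condition had more than 1 library, and leaving out a replicate was not possible for the same reason. Every log2 ratio of a member kept its sign under both scalings, both pseudocounts and on recovered reads, except that of *CTGF* under si-RBCK1 #2, which ranged from -0.05 to 0.0025. Of the 20 ratios, 4 moved beyond their counting error with equal medians, 6 with equal totals, 7 with a pseudocount of 5 RPKM and 0 with the others. The filters cannot change the ratio of a single gene. Medians of the 10 genes under si-RBCK1 #1 were -0.51 (equal totals), -0.40 (pseudocount 5 RPKM) and -0.32 (mean), and under si-RBCK1 #2 -0.36 (equal medians) and -0.42 (mean). With equal totals, *CYR61* passed the 2-fold limit under si-RBCK1 #1, which gave 1 gene there and 1 with both siRNAs. A pseudocount of 5 RPKM left 1 gene under si-RBCK1 #2, *CYR61*, with *ANKRD1* then at a log2 ratio of -0.85. A limit of 1.5-fold gave 5 genes under si-RBCK1 #1 and 3 with both, and a limit of 4-fold gave 0 under si-RBCK1 #2, as a looser or stricter limit must. Shares of all genes were not counted with equal totals, a pseudocount of 5 RPKM or the 4-fold limit, so these counts have no background. For the further YAP/TAZ targets, the filter at 5 RPKM gave -0.0306 under si-RBCK1 #1, and the mean gave -0.34 and -0.28. For the Hippo kinases under si-RBCK1 #2, equal medians gave -0.0773 and the filter at 5 RPKM gave -0.0842. For the SRF/MRTF targets under si-RBCK1 #2, equal medians gave 0.48, no filter 0.40 and the mean 0.37. Beyond the construction of the limits and filters, the cause was not tested. The median of all genes was 0.01 and -0.01 with equal medians, and -0.03 and 0.01 with equal totals.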

Other observations

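A list of 8 genes held relatives of the 10 genes and also *GAS6*, which is not a relative. Of these 8, 5 passed the filter, *GAS6* among them, with median log2 ratios of -0.07 and -0.08. *NOV*, another CCN protein, was at 9.04 RPKM under si-Control, 7.56 RPKM under si-RBCK1 #1 and 8.51 RPKM under si-RBCK1 #2, so it stood below both *CTGF* and *CYR61* in each library, and the other CCN genes (*WISP1*, *WISP2* and *WISP3*) stayed below 1 RPKM. *GAS6*, the ligand of AXL, was at 23.3, 22.1 and 30.2 RPKM, log2 ratios of -0.07 and 0.36. The receptors related to AXL were at lower levels than *AXL*, with *TYRO3* at 5.48, 8.28 and 6.44 RPKM and *MERTK* at 5.50, 5.45 and 4.73 RPKM. *ANKRD2*, the muscle relative of *ANKRD1*, had log2 ratios of -0.74 and -0.28 at 0.992 to 2.33 RPKM.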
